A study of Mus musculus with 10 samples.

Results

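A set of 9 genes that mark layers of excitatory neurons in the mouse cerebral cortex were followed in brains with and without an intact Abcc5 gene. The members were chosen by symbol: Cux2, Rorb and Rasgrf2 for upper layers, Tbr1, Fezf2, Foxp2, Etv1 and Tle4 for deep layers, and Neurod6 for cortical projection neurons of all layers. All 9 were present among the 25050 genes of the deposited count table, and all 9 passed the filter on low counts that left 14526 genes for testing. The study compared 5 brains labelled Wildtype (Abcc5+/+) with 5 labelled Abcc5 knockout (Abcc5-/-), all from FVB/NJ mice. The mice were killed by CO2 asphyxiation and the brains were frozen, and polyadenylated RNA was sequenced with TruSeq libraries. Ages and the deleted exons are not given in the sources used here. The labels give each library a brain of its own and do not otherwise describe the animals, so the p-values measure the spread between these 10 libraries. Levels of genes typical of single brain regions differed between the libraries, as given below. In RNA from brain tissue, fewer cells of a type and less RNA per cell cannot be told apart.

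Excitatory neurons of the neocortex are born in sequence and settle in layers, deep layers first. Each layer keeps a characteristic set of transcription factors: those of the deep layers direct axons to the thalamus, brainstem and spinal cord, and those of the upper layers mark neurons that connect cortical areas. The same factors are reused elsewhere in the brain. Foxp2 is also present in striatal neurons and in Purkinje cells, and Etv1 in granule cells of the cerebellum. Rorb is present in the thalamus and Tbr1 in projection neurons of the olfactory bulb. A level in brain RNA is thus a sum over several regions.

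Levels are CPM (counts scaled to a fixed library total) after TMM scaling, which corrects for library size and composition. Library totals ran from 7731294 to 23588335 counts, and wildtype replicate 1 and knockout replicates 2 and 4 had the most. Abcc5, the ABC transporter gene that was targeted, averaged 310.5 ± 12.6 CPM over the wildtype and 218.4 ± 5.94 CPM over the knockout libraries (SD, n = 5 each), with no overlap and a log2 fold change of -0.51 (SE 0.041, edgeR adjusted p = 6.35e-06). In a principal component analysis 1 library, knockout replicate 3, was far from the other 9 on component 1 (33.0% of the variance), and results are given with and without it.

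Upstream sequence was matched for 8 of the 9 members in RefSeq (build GRCm38.p6), with 12 windows of 250 bases before an annotated start, because some genes have more than 1 start. The windows of Tbr1, Neurod6 and Rasgrf2 are shown since these 3 had the largest excess in knockout replicate 3. The first Etv1 window is shown since Etv1 was the member that went the other way in that library. Capitals mark E-boxes (CANNTG, the motif bound by basic helix-loop-helix factors such as Neurod6). Each sequence runs 5′ to 3′ along the gene and ends 1 base before the annotated start. For the windows of Rasgrf2 and Tle4, the bases after that start were not found in a GENCODE transcript of the gene.
Tbr1, chr2:61804203-61804452, plus strand: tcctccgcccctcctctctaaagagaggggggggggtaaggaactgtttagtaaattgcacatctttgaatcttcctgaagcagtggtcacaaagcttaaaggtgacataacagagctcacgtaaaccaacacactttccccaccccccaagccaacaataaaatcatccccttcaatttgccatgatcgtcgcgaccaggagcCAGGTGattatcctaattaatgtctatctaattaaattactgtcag
Neurod6, chr6:55681264-55681513, minus strand: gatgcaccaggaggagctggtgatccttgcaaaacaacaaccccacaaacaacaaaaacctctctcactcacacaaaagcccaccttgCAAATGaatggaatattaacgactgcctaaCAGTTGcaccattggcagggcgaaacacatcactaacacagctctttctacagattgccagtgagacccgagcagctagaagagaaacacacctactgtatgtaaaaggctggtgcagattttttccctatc
Rasgrf2, chr13:92131829-92132078, minus strand: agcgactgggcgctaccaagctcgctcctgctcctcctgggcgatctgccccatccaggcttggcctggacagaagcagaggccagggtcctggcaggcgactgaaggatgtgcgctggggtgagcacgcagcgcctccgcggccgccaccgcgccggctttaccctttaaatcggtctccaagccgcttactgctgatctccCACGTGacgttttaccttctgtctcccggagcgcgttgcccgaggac
Etv1, chr12:38779832-38780081, plus strand: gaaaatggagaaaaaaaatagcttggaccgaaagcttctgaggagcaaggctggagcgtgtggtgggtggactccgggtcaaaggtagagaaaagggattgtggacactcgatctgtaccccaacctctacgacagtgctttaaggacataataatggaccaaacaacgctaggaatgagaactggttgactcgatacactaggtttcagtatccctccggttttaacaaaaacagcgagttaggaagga
An E-box was present in 8 of the 12 windows, and in 66.2% of all 32851 windows of this length in the reference. By gene, 7 of the 8 matched members had an E-box in a window, and no share by gene was taken over the reference. The Tbr1 and Rasgrf2 windows each held 1 E-box, starting 46 and 47 bases before the start. The Neurod6 window held 2, at 162 and 132 bases. The first Etv1 window held none, and the second held 3. A further 5 motifs were searched on both strands; the E-box pattern reads the same on both. The T-box site AGGTGTGA (1.12% of all windows), the nuclear receptor site AGGTCA (14%), the forkhead site TGTTTAC (3.17%) and the ETS site CCGGAAGT (2.88%) were in no member's window. The CUT site ATCGAT (0.728% of all windows) was in 1, the second window of Cux2. That CUT site did not overlap an E-box. A match, or its absence, describes these letters only.

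Divided by exon length, wildtype levels of the members spanned from 20.2 ± 2.21 CPM per kb for Neurod6 to 1.80 ± 0.191 CPM per kb for Foxp2 (SD, n = 5). Rasgrf2 came next to Neurod6 at 16.4 ± 0.824 CPM per kb, and their ranges met, since the lowest Neurod6 library had 17.1 and the highest Rasgrf2 library 17.6. Etv1 (10.8 ± 0.661), Tbr1 (10.3 ± 0.353) and Tle4 (10.2 ± 0.561 CPM per kb) formed a middle group whose ranges overlapped one another. Below them, without overlap between neighbours, were Cux2 (8.58 ± 0.147), Fezf2 (4.63 ± 0.297), Rorb (2.95 ± 0.220) and Foxp2. Exon lengths were the union of annotated exons, and a gene whose brain transcripts use only some of them has a higher level per kb of used exon than given here.

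None of the 9 members passed the test for a genotype difference. With all 10 libraries, 0 of 9 members reached an edgeR adjusted p under 0.05, where 1.18% of all tested genes did, and 0 of 9 reached an unadjusted p under 0.05, where 14.8% did. Without knockout replicate 3 the count of members past the adjusted threshold was again 0, with a background of 2.31%. In every member the knockout range overlapped the wildtype range with and without that library, where the groups of 4.19% of all tested genes did not overlap with it and 6.55% without it. A count of 0 of 9 is near such a background and is not a result about the members.

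**Figure D1:**
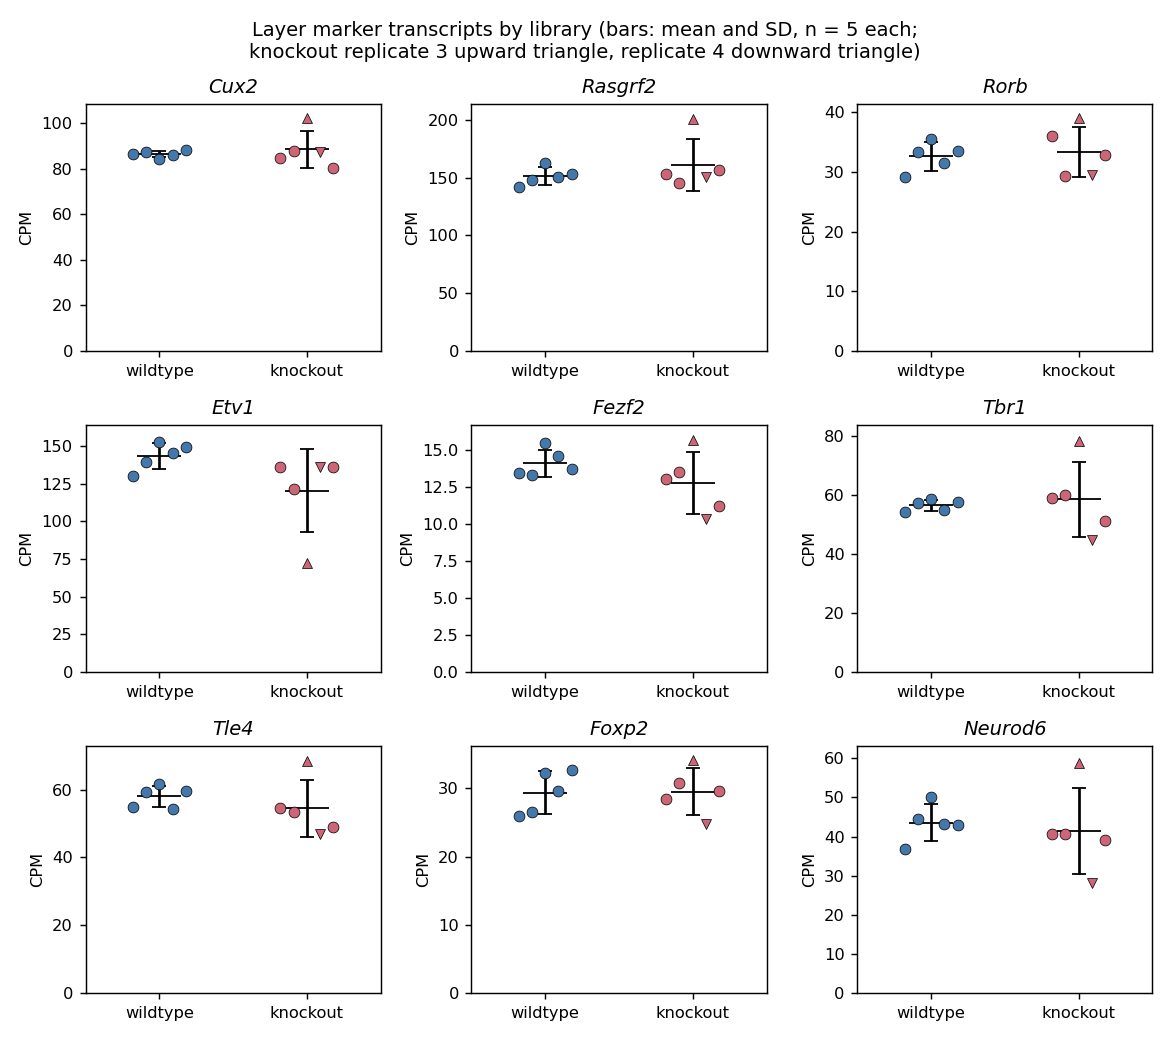
TMM-scaled CPM (y axis, from 0) of each of the 9 layer markers in 5 wildtype (blue) and 5 knockout (red) libraries, with mean and SD. Knockout replicate 3 (upward triangle) is the highest of all 10 libraries in every panel except Etv1, where it is the lowest at 72.3 CPM, and knockout replicate 4 (downward triangle) is the lowest in 5 panels.

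Among the upper-layer members, Cux2, a cut-like homeobox factor of layers 2 to 4 (chromosome 5, 122307972 to 122500111 in the deposited coordinates, whose build is not named), was the steadiest. It had 86.5, 87.3, 84.4, 85.9 and 88.3 CPM in wildtype replicates 1 to 5 and 84.7, 87.8, 102.3, 87.2 and 80.4 CPM in knockout replicates 1 to 5. Apart from the high knockout replicate 3 and the low knockout replicate 5, all libraries lay close together. The log2 fold change was 0.032 (SE 0.055, 95% interval -0.086 to 0.15, edgeR adjusted p = 0.845), and it turned to -0.018 without knockout replicate 3 (interval -0.11 to 0.074).

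Rasgrf2, a calcium-regulated exchange factor for Ras family GTPases (chromosome 13, 92020005 to 92901611), had 142.3, 147.8, 162.9, 150.8 and 153.2 CPM in wildtype and 152.8, 145.5, 200.7, 150.4 and 156.2 CPM in knockout libraries. Knockout replicate 3 was far above every other library, and the other 4 knockout libraries lay inside the wildtype range. The log2 fold change was 0.087 (SE 0.075, edgeR adjusted p = 0.630) with all libraries and 0.00065 without knockout replicate 3, with an interval of -0.095 to 0.096. Rorb, a nuclear receptor of layer 4 neurons (chromosome 19, 19005095 to 19185686), had 29.1, 33.4, 35.5, 31.5 and 33.5 CPM in wildtype and 35.9, 29.3, 39.0, 29.6 and 32.8 CPM in knockout libraries. Its groups overlapped widely, with a log2 fold change of 0.018 (SE 0.083, edgeR adjusted p = 0.957). The sign turned without knockout replicate 3, to -0.040 (interval -0.19 to 0.11, edgeR adjusted p = 0.817).

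Among the deep-layer members, Tle4, a Groucho-type co-repressor of layer 6 neurons (chromosome 19, 14522562 to 14672473), had 54.9, 59.4, 61.7, 54.4 and 59.7 CPM in wildtype and 54.7, 53.4, 68.5, 47.0 and 49.1 CPM in knockout libraries. Without knockout replicate 3, 3 of the 4 knockout libraries were below every wildtype library and knockout replicate 1 was just inside the wildtype range. The log2 fold change was -0.098 (SE 0.083, edgeR adjusted p = 0.622) with all libraries. Without knockout replicate 3 it was -0.18 (SE 0.059, interval -0.30 to -0.058), with an unadjusted edgeR p of 0.00626 and an adjusted p of 0.112, the smallest that any member reached over 20 alternative settings.

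Fezf2, the zinc finger factor that specifies corticospinal and other subcerebral neurons of layer 5 (chromosome 14, 13174406 to 13178379), had 13.5, 13.3, 15.5, 14.6 and 13.7 CPM in wildtype and 13.1, 13.6, 15.7, 10.3 and 11.2 CPM in knockout libraries. Knockout replicates 4 and 5 were the lowest and the other 3 knockout libraries were close to wildtype. The log2 fold change was -0.16 (SE 0.10, edgeR adjusted p = 0.486), and -0.23 without knockout replicate 3 (interval -0.42 to -0.030, edgeR unadjusted p = 0.0262, adjusted p = 0.213). Fezf2 had the fewest counts of the members, with 92 in knockout replicate 5.

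Tbr1, a T-box factor of corticothalamic neurons in layer 6 (chromosome 2, 61640987 to 61652171), had 54.1, 57.3, 58.7, 54.9 and 57.5 CPM in wildtype libraries. In knockout libraries it had 59.0, 60.1, 78.2, 44.6 and 51.1 CPM, so the wildtype libraries were tightly grouped, 3 knockout libraries were above all of them and 2 were below. The group means, 56.5 ± 1.94 and 58.6 ± 12.6 CPM (SD, n = 5 each), differed by less than the knockout spread (log2 fold change 0.039, SE 0.11, edgeR adjusted p = 0.916). The sign turned without knockout replicate 3, to -0.074 (interval -0.23 to 0.082, edgeR adjusted p = 0.636). Foxp2, a forkhead factor of layer 6 (chromosome 6, 14851349 to 15391977), had 26.0, 26.5, 32.2, 29.6 and 32.7 CPM in wildtype and 28.4, 30.8, 34.1, 24.7 and 29.6 CPM in knockout libraries. The knockout range enclosed the wildtype range, with a log2 fold change of 0.0055 (SE 0.089, edgeR adjusted p = 0.990). It was -0.040 without knockout replicate 3 (interval -0.21 to 0.13, edgeR adjusted p = 0.842), again with the sign turned.

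Etv1, an ETS factor of layer 5 neurons (chromosome 12, 39505967 to 39594802), had 130.4, 139.0, 152.4, 145.5 and 149.3 CPM in wildtype and 136.3, 121.6, 72.3, 136.1 and 135.9 CPM in knockout libraries. Knockout replicate 3 was far below all others, and knockout replicate 2 was the lowest of the rest. The log2 fold change was -0.24 (SE 0.13, edgeR adjusted p = 0.391) with all libraries and -0.11 (interval -0.22 to -0.00079, edgeR unadjusted p = 0.0485, adjusted p = 0.275) without knockout replicate 3. In the 3 libraries with the most counts (1 wildtype, 2 knockout) the log2 difference was -0.019, and in the other 7 it was -0.41, or -0.11 without knockout replicate 3.

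Neurod6, a basic helix-loop-helix factor of cortical and hippocampal projection neurons (chromosome 6, 55627812 to 55631257), varied most among the wildtype libraries, with a coefficient of variation of 10.9% against 1.72% for Cux2. It had 36.7, 44.4, 50.1, 43.3 and 43.0 CPM there and 40.7, 40.7, 58.7, 28.1 and 39.1 CPM in knockout libraries. Knockout replicates 3 and 4 were the highest and the lowest of all 10, and the other 3 knockout libraries lay in the lower part of the wildtype range. The log2 fold change was -0.089 (SE 0.14, edgeR adjusted p = 0.826), and -0.23 without knockout replicate 3 (interval -0.45 to -0.017, unadjusted p = 0.0357, adjusted p = 0.241). Leaving out knockout replicate 4 instead gave 0.043 (edgeR adjusted p = 0.916). With knockout replicates 3 and 4 both left out, a setting chosen after the values were seen, Neurod6 was at -0.095 (edgeR adjusted p = 0.649). The sign thus turned only where knockout replicate 4 was left out and knockout replicate 3 was kept.

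**Figure D2:**
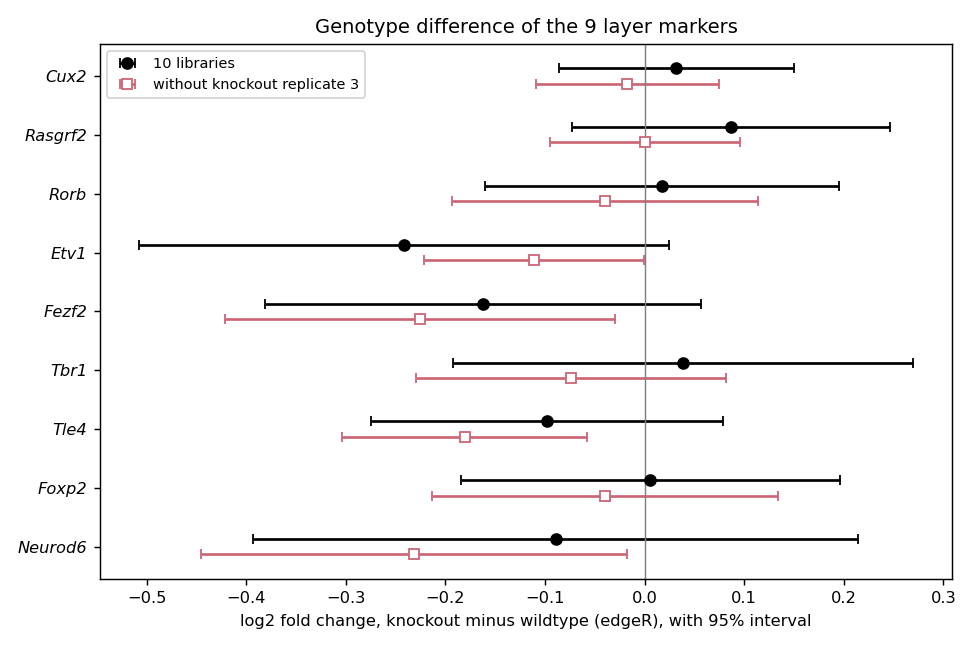
Log2 fold change of each layer marker (x axis, knockout minus wildtype, edgeR) with its 95% interval, from 10 libraries (black circles) and without knockout replicate 3 (open red squares). With 10 libraries every interval includes 0, and without that library the intervals of Etv1, Fezf2, Tle4 and Neurod6 lie below 0 before adjustment.

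Over the members, 5 fold changes were above 0 and 4 below with all libraries, with a median of 0.0055 (log2), where the median over all tested genes was 0.0042. Without knockout replicate 3, 8 of 9 were below 0 and the median was -0.074, where that of all tested genes was 0.0061. In that fit 4 members (Fezf2, Etv1, Tle4 and Neurod6) had lower knockout levels at an unadjusted p under 0.05, where 17.9% of all genes were under it and 9.2% were under it and lower. With knockout replicates 3 and 4 both left out, a setting chosen after the values were seen, this held for 2 members (Etv1 at -0.13 and Tle4 at -0.14, edgeR adjusted p = 0.344 and 0.337), where 13% of all genes were under it and 7.41% were under it and lower, and 0 of 9 passed the adjusted threshold, where 0.952% of all genes did. No member passed the adjusted threshold in any of these fits. In the authors' deposited table the log2 fold changes of the 9 members ran from -0.25 (Etv1) to 0.066 (Rasgrf2), with adjusted p-values from 0.505 to 0.998.

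The 3 libraries with the most counts (1 wildtype, 2 knockout) and the other 7 gave different values for several members. The log2 difference of Tbr1 was -0.064 in the former and 0.11 in the latter, or -0.057 in the latter without knockout replicate 3. That of Neurod6 was -0.12 and 0.0089, or -0.18 without knockout replicate 3. Fezf2 (-0.19 and -0.11, or -0.23) and Tle4 (-0.13 and -0.047, or -0.18) were lower in knockout in both classes. With a single wildtype library in the deeper class these values have no test.

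The widest departures among the members were those of single knockout libraries. In knockout replicate 3, 8 of 9 members had their highest value of all 10 libraries, where 19.4% of all tested genes did. Against the geometric mean of the other 9 libraries this library held 1.46 times as much Neurod6, 1.42 times as much Tbr1, 1.33 times as much Rasgrf2 and 1.25 times as much Tle4. Rorb (1.21), Fezf2 (1.19), Cux2 (1.19) and Foxp2 (1.18) were higher by less. Etv1 was at 0.524 of the other libraries and at its lowest there, as were 19.2% of all tested genes. In this respect Etv1 did not go with the other layer markers in these data.

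**Figure D3:**
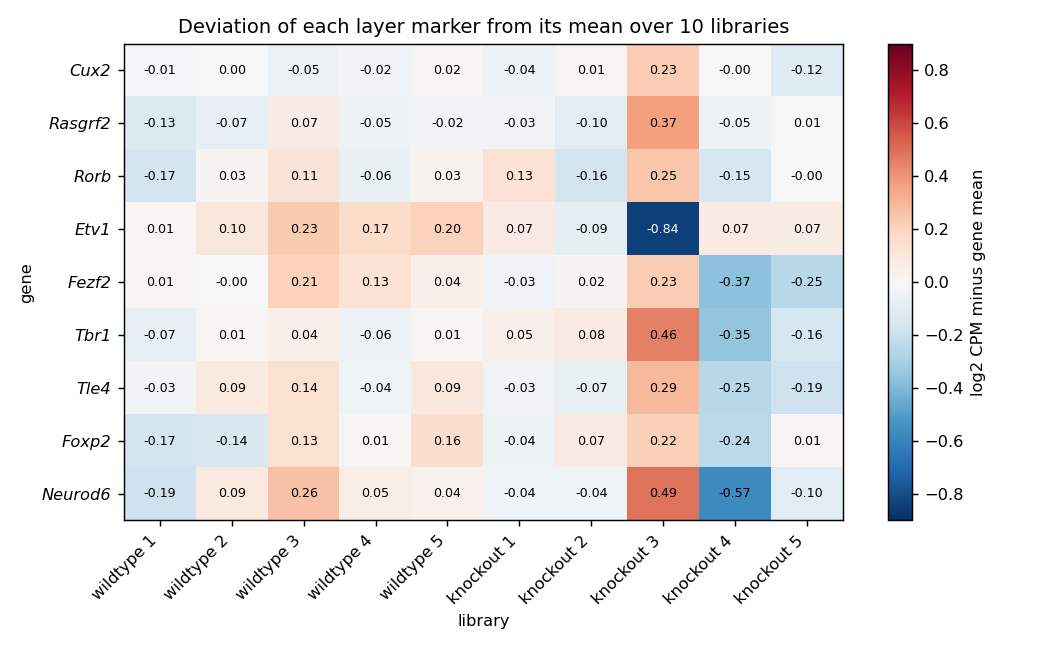
Log2 CPM of each layer marker (rows) in each library (columns) minus the gene's mean over the 10 libraries, with the value printed in each cell. The knockout replicate 3 column is above the mean for 8 markers and at -0.84 for Etv1, and the knockout replicate 4 column is below it for 8 markers, down to -0.57 for Neurod6.

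Genes typical of other brain regions also stood apart in that library. All 16 cerebellar genes of a list that includes Gabra6, Cbln3 and Pcp2 were at their lowest of 10 in knockout replicate 3, at a median of 0.149 of the other libraries. Their summed level was 996.4 CPM there, against 2927 to 3138 CPM in wildtype and 3031 to 3379 CPM in the other knockout libraries. Cbln3, a secreted protein of granule cells, had 2.50 CPM there, against 271.5 to 287.0 CPM in wildtype libraries. Of 5 tested hindbrain genes 4 were at their lowest. Over all 10 hindbrain genes of the list, tested or not, the sum was 17.1 CPM there, against 83.3 to 94.0 CPM in wildtype. Of the tested hindbrain genes, Hoxa5 and Hoxc4 had 0 counts in that library. A count of 0 allows a level of up to 0.395 CPM each (3 counts, covering counting error only). None of the 16 cerebellar genes was at 0. Genes of cortical projection neurons were high there too, and 9 of 12 had their highest value, at a median of 1.36 times the other libraries. Striatal genes were high in the same library, with 7 of 10 at their highest and a median of 1.30. Olfactory bulb genes stood apart in other libraries. The mean log2 CPM of 10 such genes was 2.23 and 2.47 in knockout replicates 1 and 2. It was 3.29 to 3.62 in wildtype libraries and 3.51, 3.32 and 3.57 in knockout replicates 3, 4 and 5. Of these genes 1, Eomes, was called lower in knockout, where 1.18% of all tested genes were called in either direction. The part of these regional differences in the members' values was not tested.

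**Figure D4:**
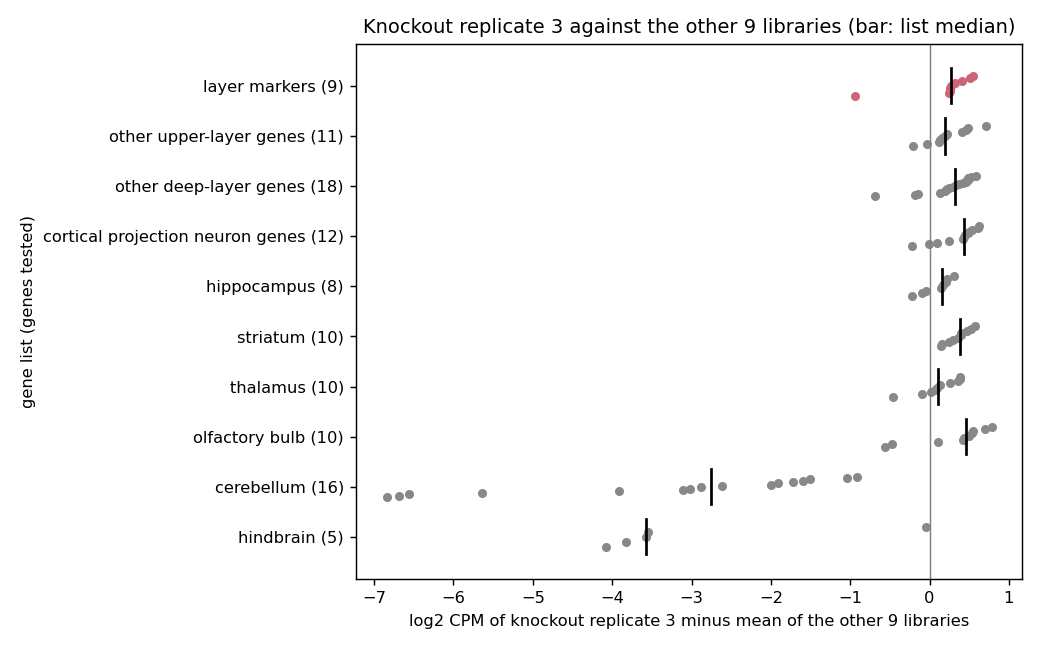
Log2 CPM of knockout replicate 3 minus the mean of the other 9 libraries (x axis) for each tested gene of 10 lists (rows), with a bar at each list's median. Of the 9 layer markers 8 lie between 0.24 and 0.54 and Etv1 at -0.93, while the cerebellar list has its median at -2.75 and the hindbrain list at -3.58.

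Knockout replicate 4 was low in part of the members. It was the lowest of 10 libraries for 5 of 9 (Tbr1, Fezf2, Foxp2, Tle4 and Neurod6), where this held for 11.4% of all tested genes. Against the geometric mean of the other libraries, with knockout replicate 3 left out, Neurod6 was 33.2% lower, Fezf2 23.3%, Tbr1 21.0%, Foxp2 15.8% and Tle4 15.7%. Of the upper-layer members Cux2 was at 1.02, Rasgrf2 at 0.994 and Rorb at 0.908 of the other libraries, and the deep-layer Etv1 was at 0.983. Thus 4 of the 5 deep-layer members and none of the 3 upper-layer members were at their lowest in this library.

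The same library was low for part of the other forebrain genes. Of 10 striatal genes, which include the dopamine receptors, 9 were at their lowest, and their sum was 671.5 CPM against 776.1 to 806.6 CPM in wildtype and 805.5 to 993.5 CPM in the other knockout libraries. Pde10a, a phosphodiesterase of striatal projection neurons, had 186.7 CPM there against 213.7 to 230.5 CPM in wildtype libraries. Of 18 other deep-layer genes 7 were at their lowest there, as were 5 of 12 cortical projection neuron genes and 0 of 11 other upper-layer genes. It was the lowest for 0 of 8 hippocampal, 0 of 10 olfactory bulb and 1 of 10 thalamic genes. Knockout replicate 4 had the most counts of all 10 libraries, 23588335, and knockout replicate 3 the fewest, 7731294. How far regional makeup or depth entered the low values of the deep-layer members was not tested.

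The balance of upper-layer and deep-layer members was taken within each library, as the mean log2 CPM of Cux2, Rorb and Rasgrf2 minus that of Tbr1, Fezf2, Foxp2, Etv1 and Tle4. This difference is nearly unaffected by library scaling. It was 0.74, 0.77, 0.69, 0.71 and 0.70 in wildtype replicates 1 to 5 and 0.82, 0.71, 1.01, 0.96 and 0.86 in knockout replicates 1 to 5. Of the knockout libraries 4 were above every wildtype library, and knockout replicate 2 was inside the wildtype range. The means were 0.72 ± 0.033 and 0.87 ± 0.12 (SD, n = 5 each), a difference of 0.15 (log2). It was 0.11 without knockout replicate 3 and 0.072 with knockout replicates 3 and 4 both left out.

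Etv1 made up part of that difference in knockout replicate 3. With Etv1 left out of the deep-layer mean, a setting chosen after the values were seen, the balance was 1.15, 1.19, 1.10, 1.13 and 1.12 in wildtype and 1.22, 1.08, 1.17, 1.42 and 1.30 in knockout libraries. Knockout replicate 3 then fell inside the wildtype range, knockout replicate 2 was below it, and knockout replicates 1, 4 and 5 were above it. The difference between the means was 0.10. These balances are descriptions and were given no test, because the members were chosen with results of these libraries known.

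**Figure D5:**
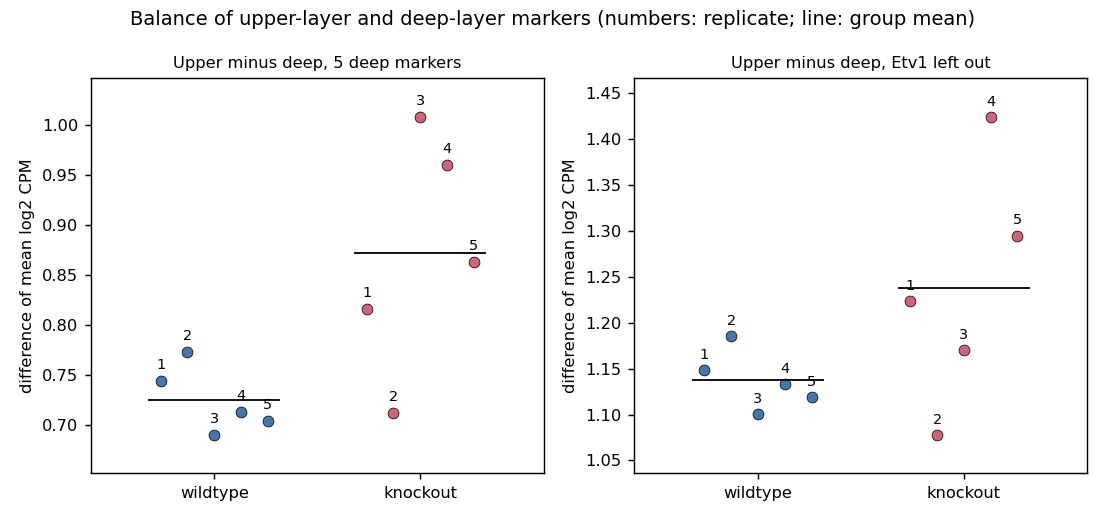
Mean log2 CPM of 3 upper-layer markers minus that of the deep-layer markers (y axis, which does not start at 0) in each library, with all 5 deep-layer markers (left) and without Etv1 (right), numbers giving the replicate and lines the group means. With all 5, wildtype libraries lie between 0.69 and 0.77 and 4 of 5 knockout libraries above them, and without Etv1 knockout replicate 3 lies among the wildtype libraries.

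Other genes of the same layers were compared in the same fit. Of 12 further upper-layer genes 11 matched the table and were tested, and 0 passed the adjusted threshold, with a median log2 fold change of 0.019. At an unadjusted p under 0.05, 2 were higher in knockout and 0 lower, where 6.74% and 8.03% of all tested genes were. These were Otof, the calcium sensor otoferlin, with 37.8 ± 1.91 and 44.5 ± 7.04 CPM (edgeR adjusted p = 0.223), and Rspo1, a secreted enhancer of Wnt signalling, with 4.82 ± 0.427 and 5.97 ± 0.973 CPM (adjusted p = 0.312) in wildtype and knockout. The most abundant were Cux1, the paralogue of Cux2, at 79.7 ± 3.51 and 77.5 ± 3.40 CPM, and Whrn, a scaffold protein, at 57.4 ± 4.08 and 59.9 ± 6.86 CPM. In knockout replicate 3 the median of these 11 genes was 1.14 times the other libraries, and 4 were at their highest.

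Of 18 further deep-layer genes, all tested, 0 passed with all libraries, and the median log2 fold change was -0.011. At an unadjusted p under 0.05, 1 was higher and 2 were lower in knockout, where 6.74% and 8.03% of all tested genes were. The higher one was Rprm, a layer 6 marker, with 22.0 ± 0.831 CPM in wildtype and 27.6 ± 4.27 CPM in knockout (log2 fold change 0.32, SE 0.089, edgeR adjusted p = 0.0966). Its groups did not overlap, as was so for 4.19% of all tested genes. The lower ones were Ctgf, a secreted matrix protein of layer 6b, with 14.95 ± 1.51 and 12.3 ± 2.62 CPM (adjusted p = 0.227), and Deptor, an mTOR inhibitor in layer 5, with 37.2 ± 0.951 and 32.8 ± 4.17 CPM (adjusted p = 0.229).

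Without knockout replicate 3, 2 of these 18 genes fell past the adjusted threshold, Deptor by 0.26 (log2, edgeR adjusted p = 0.0196) and Ctgf by 0.44 (adjusted p = 0.0270), where 1.68% of all genes were called lower. Deptor was singled out after its values were seen. The knockout libraries other than replicate 3 had 33.6, 30.7, 29.8 and 30.1 CPM of Deptor, all below the lowest wildtype library at 35.7 CPM. Without that library the groups of 6.55% of all tested genes did not overlap. Knockout replicate 3 had 39.8 CPM of Deptor, the highest of 10. In knockout replicate 3, 13 of the 18 were at their highest, at a median of 1.24 times the other libraries, and 3 at their lowest, Pcp4, Zfpm2 and Nxph4. The abundant Bcl11b, the factor of subcerebral neurons downstream of Fezf2, had 72.7 ± 3.72 and 70.4 ± 15.6 CPM, and Parm1 had 85.6 ± 4.60 and 84.1 ± 5.41 CPM.

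General genes of cortical projection neurons were present in all 10 libraries. Camk2a, a synaptic kinase, had 1860.3 ± 83.1 CPM in wildtype and 2067 ± 268.8 CPM in knockout (edgeR adjusted p = 0.323). Slc17a7, a vesicular glutamate transporter, had 694.0 ± 18.7 and 732.1 ± 65.9 CPM (edgeR adjusted p = 0.540). Emx1, a homeobox factor of the dorsal telencephalon, had 6.40 ± 0.882 and 7.65 ± 1.25 CPM (adjusted p = 0.343). Of the 12 genes 0 passed with or without knockout replicate 3, and their median log2 fold change was 0.070.

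The genes whose pattern over the 10 libraries was most like that of the members were ranked by the root mean square difference (log2) from the median deviation of the 9 members, among 3286 genes with at least 10 CPM and at least the same spread. The nearest were Alcam (0.033), a cell adhesion molecule, Cdk17 (0.040), a cyclin-dependent kinase, Syt1 (0.041), the calcium sensor of synaptic release, Abi2 (0.041), an actin regulator, and Nrg3 (0.041), a neuregulin. Of the members themselves Tle4 was nearest to their median pattern (0.048) and Etv1 farthest (0.38). The 10 points are the same libraries for every gene, with their depth and regional makeup in common, and no p is given.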

How the data were processed

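Per the labels, RNA came from 5 Wildtype and 5 Abcc5 knockout brains. The authors deposited 1 table with a count per Ensembl gene and library, a log2 fold change and an adjusted p-value per gene. The submitters' processing notes name TopHat2 2.0.6, HTSeq, edgeR and limma; the genome build and the strand setting of the counting are not given in the sources used here. Of the deposited fold change cells 629, and of the p-value cells 8, could not be read as numbers and were left out, and 10 further columns of per-sample values were not used.

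The test was edgeR 4.0.16 under R 4.3.3 (filterByExpr with a minimum count of 10 and a minimum total of 15, TMM factors 0.982 to 1.01, quasi-likelihood test with genotype as the term, Benjamini-Hochberg adjustment over all 14526 tested genes, or 14747 without knockout replicate 3). A prior count of 2 entered log2 CPM. The common biological coefficient of variation was 0.071, and replicates differed by more than counting error. The method was tested on simulated data with larger fold changes than those of the members and with no library set apart. That run does not bear on differences as small as the members had. Alternatives also used DESeq2 1.42.0 and limma 3.58.1. Exon lengths came from GENCODE (GRCm38) and upstream sequences from RefSeq.

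Samples were grouped by their labelled genotype. Replicate numbers occur in both groups, but deviations of same-numbered libraries correlated between -0.138 and 0.0893, so they were not taken as pairs. The members and the gene lists were chosen with earlier results of these data known. Besides the members and Abcc5, the rule named the genes of each list that were called, the 2 with the smallest p and the 2 most abundant, and the 5 genes with the most similar pattern, and only those of the layer and cortical lists and some of other regions are printed. The symbol Lamp5 was not matched in the table. Cbln1 has 2 rows, of which the one with the reference's identifier was used.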

Additional observations from a re-analysis of the deposited data

Results flagged for a closer look

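In the knockout group, 1 library lay far from the other 4 for 2 of the members. Rasgrf2 had 200.7 CPM in knockout replicate 3, above the other knockout libraries by 0.778 of the group's whole range in log2 CPM. Etv1 had 72.3 CPM in the same library, below the other knockout libraries by 0.820 of the range in log2 CPM. The critical value for 5 samples is 0.71. Of 20 groups examined (the 9 members and the upper minus deep difference, in each genotype) these 2 were past it, and chance flags about 1 in 20 groups.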

How the results depend on the processing

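The count of members past the adjusted threshold was 0 under every setting run, including an adjusted p threshold of 0.1. With limma-voom and sample weights the log2 fold change changed sign for Tbr1 (-0.027), Rorb (-0.051) and Foxp2 (-0.030), and with knockout replicates 3 and 4 both left out, a setting chosen after seeing the data, for Cux2 (-0.032) and Rorb (-0.0049); the main values were near 0 and the cause was not tested. Leaving out 1 library at a time gave log2 fold changes of -0.074 to 0.13 for Tbr1, -0.23 to -0.071 for Fezf2, -0.018 to 0.059 for Cux2, -0.040 to 0.066 for Rorb, -0.045 to 0.076 for Foxp2, 0.00065 to 0.12 for Rasgrf2, -0.29 to -0.11 for Etv1, -0.18 to -0.043 for Tle4, -0.23 to 0.043 for Neurod6 and -0.52 to -0.49 for Abcc5. The median of the members ran from -0.074 (without knockout replicate 3) to 0.043 (without knockout replicate 4), and the upper minus deep difference from 0.11 to 0.19; with knockout replicates 3 and 4 both left out that difference was 0.072. The count of all genes past the threshold, 171, was 90 with the replicate number as a block, 563 with limma-voom and sample weights, 259 with the Wald test of DESeq2, 63 at an adjusted p of 0.01 and 373 at 0.1, and 76 to 341 with 1 library left out; the cause was not tested. The block moved no member past the threshold, and for 1 of 5 replicate numbers the same-numbered libraries were each other's best match.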
